A study of Caenorhabditis elegans with 20 samples.

Results

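The genotype by mold interaction asks, gene by gene, whether Caenorhabditis elegans carrying the allele ns889 responded to the mold Penicillium brevicompactum as wild-type (WT) animals did. It is the mold response of ns889 animals (ns889 with mold minus ns889 without mold) minus that of WT animals (WT with mold minus WT without mold), on the log2 scale. All 12 replicates of the series enter it, as 20 sequencing runs summed per replicate, with 3 replicates in each of 4 groups: ns889 with mold, ns889 without mold, WT with mold and WT without mold. All 4 groups were whole young adult animals, about 48 hours from L1 arrest at 20 C, on NGM plates seeded with Escherichia coli OP50, and mold-exposed groups had the mold on the same plates. The labels do not name the gene that ns889 affects, and they do not say that replicates came from separate cultures, so the spread behind every p-value may be technical. Poly(A) RNA of whole animals was counted, so fewer cells of a type and less RNA per cell cannot be told apart.

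Nematodes meet harmful molds and microbes with several groups of secreted and intracellular proteins. Cytochrome P450 enzymes oxidize foreign and fatty molecules, and glutathione S-transferases and UDP-glycosyltransferases attach a group that makes the product easier to export. Lysozymes cut bacterial cell walls, and thaumatin-like, C-type lectin and CUB-like domain proteins are classes of secreted proteins that change after infection. Many of these proteins are made in the intestine, which is also the main site of food digestion and of yolk synthesis in the adult.

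The replicates held 95998037 to 115940062 counts, and a floor of 3 counts equals 0.0259 to 0.0313 CPM, which covers counting error only. Levels are counts scaled to library size (CPM) and by TMM, so they compare groups for a gene and not genes with each other. By the root mean square of log2 differences from its own group, the library of WT without mold replicate 1 stood farthest apart at 0.612. WT with mold replicates 3 and 1 stood at 0.577 and 0.533, and the other 9 at 0.343 to 0.463. Intestine markers, which define the tissue that makes many of the proteins above, were all present in every group, and none of the 6 passed the interaction test. Of the 6, ges-1, elt-2, ifb-2, vha-6 and act-5 passed in neither single response, and mtl-2, a metallothionein gene, fell in both genotypes. It averaged 2.03 CPM in ns889 with mold and 5.06 in ns889 without mold, against 3.65 in WT with mold and 7.67 in WT without mold.

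The mold responses of the genotypes differed in 22 of 16980 tested genes (0.13%) at an adjusted p under 0.05 in edgeR's quasi-likelihood test. The interaction was above 0 in 6 of them (0.0353% of tested genes) and below 0 in 16 (0.0942%). Without adjustment, 754 genes had p under 0.05, fewer than the 0.05 share of the 16980 tested genes that would pass if none had an interaction. Both single responses were larger sets, with 534 genes past the threshold in ns889 (3.14%) and 1064 in WT (6.27%). The 22 genes had log2 interactions of at least 0.942 in size, with a median size of 2.95, and the median log2 interaction of all tested genes was -0.03. The count depended on the libraries and the tool, and leaving out WT without mold replicate 1 gave 39 calls, leaving out that library and WT with mold replicate 3 gave 114, replicates 2 and 3 alone gave 703, DESeq2 gave 78 and a filter of 5 CPM gave 14. Of the 22 genes, 20 were called without WT without mold replicate 1, 19 without both libraries, 21 with replicates 2 and 3 alone, 22 in DESeq2 and 14 with the filter.

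Each of the 22 genes was placed in a class by which single responses passed the same threshold. A response was called lost where it passed in WT only (8 genes), weakened where it passed in both genotypes with the same sign and a smaller size in ns889 (3 genes), reversed where it passed in both with opposite signs (5 genes), and new where it passed in ns889 only (6 genes). No gene was in the remaining classes, a stronger response of the same sign in ns889 or an interaction with neither response past the threshold. The interaction and both single responses share their samples, so the classes describe the genes and add no evidence of their own. Lost responses had a median size of 0.679 log2 in ns889, against 3.4 in WT, and new responses 2.07 log2 in ns889, against 0.141 in WT. For weakened responses these medians were 1.44 in ns889 and 5.31 in WT, and for reversed responses 1.4 in ns889 and 1.1 in WT. These sizes leave out sign. In 5 of the 8 lost genes the ns889 estimate had the opposite sign to that of WT, and the signed median of the 8 was -0.122 in ns889. Lost does not mean absent: the 95% interval of the ns889 response lay within -1 to 1 in 1 of the 8 lost genes. That gene was bcmo-2, whose interval of 0.22 to 0.93 left out 0 on the side of the WT rise. The ns889 interval also left out 0, on the side opposite to WT, for irg-5 (0.35 to 1.48), cpr-1 (-1.29 to -0.38) and ilys-2 (-2.17 to -0.04). For the remaining lost genes it included 0. The 95% interval of the WT response lay within -1 to 1 in 6 of 6 new genes.

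**Figure D1:**
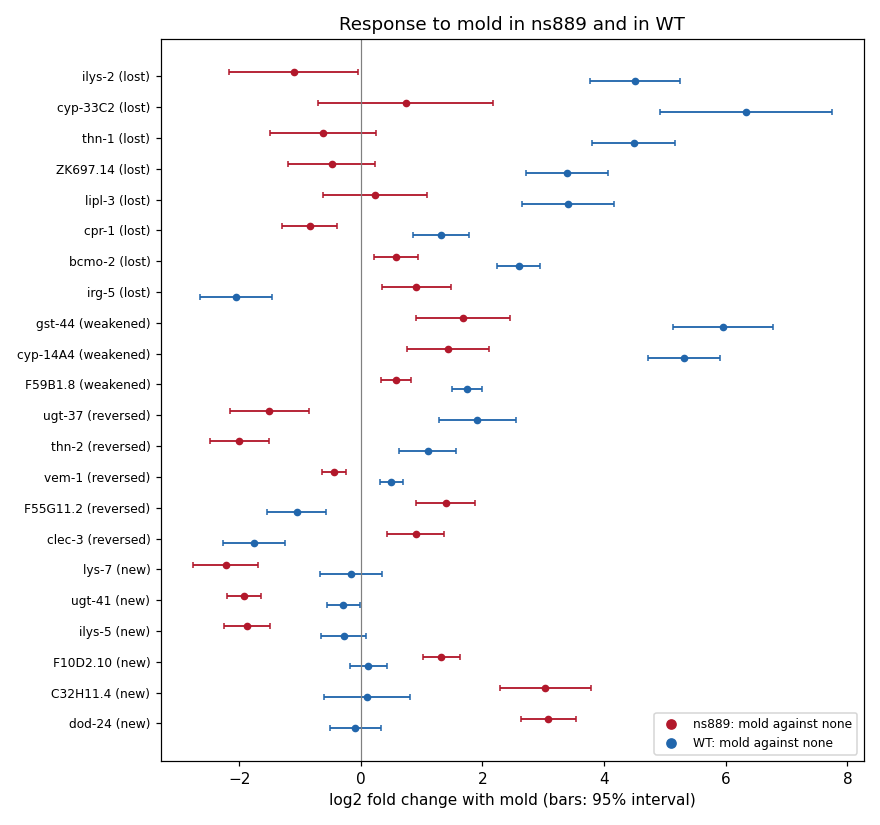
Log2 fold change with mold in ns889 (red) and in WT (blue) for the 22 genes, grouped by class, with 95% intervals as bars. In the 10 lost and weakened rises the WT point lies to the right of the ns889 point, by much for gst-44 (1.68 in ns889, 5.95 in WT) and by less for F59B1.8 (0.58 in ns889, 1.75 in WT), and new responses lie near 0 in WT, as for dod-24 (3.08 in ns889, -0.09 in WT).

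Enzymes that modify foreign molecules gave 5 of the 22 genes, and all 5 had interactions below 0, as did 16 of all 22. The cytochrome P450 gene cyp-33C2 (WBGene00016697, chromosome V:2183521-2186535, WBcel235) had 0.464, 0.425 and 0.687 CPM in ns889 with mold and 0.302, 0.331 and 0.312 CPM in ns889 without mold. In WT it had 34.7, 93.2 and 12.3 CPM with mold and 0.439, 0.664 and 0.646 CPM without mold. Every WT replicate with mold stood above all 9 other replicates, and the 3 varied widely among themselves. The log2 response was 0.74 ± 0.66 (SE) in ns889 and 6.33 ± 0.65 in WT, an interaction of -5.60 ± 0.90 (adjusted p = 0.0372). This call was lost when any of the 6 ns889 replicates or any of the 3 WT replicates without mold was left out. It was also lost in limma-voom, with no filter, with the filter of 5 CPM, with the first run only and with replicates 2 and 3 alone, over a range of adjusted p of 1.39e-07 to 0.898.

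The cytochrome P450 gene cyp-14A4, used elsewhere as a reporter of detoxification during mitochondrial dysfunction, responded in both genotypes but far less in ns889. It lies at chromosome X:13282096-13284204 (WBGene00011009) and had 0.582, 0.351 and 0.436 CPM in ns889 with mold, against 0.0977, 0.241 and 0.171 CPM in ns889 without mold. In WT it had 22.9, 36.4 and 28.1 CPM with mold and 0.760, 0.654 and 0.780 CPM without mold, so even the exposed ns889 animals stayed below every unexposed WT replicate. It rose 2.7-fold in ns889 and 39.7-fold in WT, and the log2 interaction was -3.88 ± 0.42 (adjusted p = 0.00214). This gene already differed without mold, with a log2 difference of -2.11 ± 0.30 for ns889 against WT. In limma-voom its adjusted p was 0.054, the highest of all alternatives.

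The glutathione S-transferase gene gst-44 (chromosome V:16390891-16392406, WBGene00001792) followed the same order. It had 1.69, 1.86 and 0.817 CPM in ns889 with mold and 0.409, 0.562 and 0.392 CPM in ns889 without mold, while WT had 35.7, 77.8 and 41.4 CPM with mold and 0.751, 0.822 and 0.934 CPM without mold. The rise was 3.2-fold in ns889 and 61.8-fold in WT, with a log2 interaction of -4.27 ± 0.50 (adjusted p = 0.00281). All replicates with mold stood above those without mold in WT, and in ns889 the lowest exposed replicate (0.817 CPM) was above the highest unexposed one (0.562 CPM). The call was lost in limma-voom and without both outlying WT libraries, with a highest adjusted p of 0.19.

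A pair of UDP-glycosyltransferase genes on chromosome V changed in ns889 in the direction of a fall. The gene ugt-37 (V:7141942-7145318, WBGene00017332) had 0.818, 0.794 and 0.780 CPM in ns889 with mold, against 1.91, 2.17 and 2.71 CPM in ns889 without mold. In WT it had 5.82, 9.42 and 6.90 CPM with mold and 1.05, 2.49 and 2.36 CPM without mold. Its log2 response was -1.5 ± 0.3 in ns889 and 1.91 ± 0.29 in WT, an interaction of -3.41 ± 0.42 (adjusted p = 0.00409). Its position overlaps ugt-40 on the same strand, and how reads in the overlap were counted was not tested. The gene ugt-41 (V:7161068-7163595, WBGene00017336) had 13.3, 11.9 and 14.7 CPM in ns889 with mold and 47.8, 54.5 and 48.6 CPM in ns889 without mold, against 60.9, 68.3 and 89.9 CPM in WT with mold and 91.5, 87.7 and 88.1 CPM in WT without mold. It fell 3.79-fold in ns889, while the WT response was -0.29 ± 0.13 log2 (adjusted p = 0.183), and the interaction was -1.63 ± 0.18 (adjusted p = 0.00234). Without mold its log2 difference for ns889 against WT was already -0.82 ± 0.13.

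In their families, 0 of 69 tested cytochrome P450 genes had called interactions above 0 and 2 below (2.9%, against 0.0942% of all tested genes), with a median log2 interaction of -0.15. In the single responses 10 of the 69 rose and 6 fell in ns889, against 19 that rose and 7 that fell in WT. Over all tested genes 1.86% rose and 1.28% fell in ns889, against 1.67% and 4.6% in WT. Of 48 glutathione S-transferase genes 1 was called below 0 (2.08%, median -0.04), and of 64 UDP-glycosyltransferase genes 2 were (3.13%, median -0.08). The cytochrome P450 count below 0 was 1 when ns889 with mold replicate 2 or 3 or any replicate without mold was left out, and 4 without both outlying WT libraries.

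Several detoxification genes with steep rises in both genotypes did not pass the interaction test. The cytochrome P450 gene cyp-13A8 had 48.8, 18.6 and 15.96 CPM in ns889 with mold and 0.311, 0.241 and 0.181 CPM in ns889 without mold, against 111, 95.6 and 84.3 CPM in WT with mold and 0.220, 0.137 and 0.267 CPM in WT without mold. Its log2 interaction was -2.04 ± 0.69, with a 95% interval of -3.55 to -0.53 and an adjusted p of 0.87. Its relative cyp-13A12 had 31.3, 20.04 and 10.96 CPM in ns889 with mold and 0.0355, 0.0301 and 0.0302 CPM in ns889 without mold (10 counts in all), against 145, 190 and 129 CPM in WT with mold and 1.22, 3.09 and 2.72 CPM in WT without mold. Unexposed ns889 animals were thus at the floor, with a log2 difference of -6.13 ± 0.70 from unexposed WT, and the interaction of 3.23 ± 0.93 (adjusted p = 0.705) rests on that group. The 95% interval of the cyp-13A12 interaction was 1.211 to 5.255, without adjustment for the number of genes. The interaction of gst-33 was -2.78 ± 0.84 (adjusted p = 0.786). In these genes estimates of several fold, with large errors, did not pass after adjustment over all tested genes. The oxidative stress reporter gst-4 had 73.4, 51.8 and 44.96 CPM in ns889 with mold and 29.1, 32.1 and 35.2 CPM in ns889 without mold, against 22.4, 21.97 and 17.97 CPM in WT with mold and 23.3, 37.4 and 36.1 CPM in WT without mold. Its interaction was 1.45 ± 0.28 (adjusted p = 0.122), and it passed without WT without mold replicate 1, without both outlying WT libraries, with replicates 2 and 3 alone and in DESeq2, over a range of adjusted p of 0.000104 to 0.398.

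**Figure D2:**
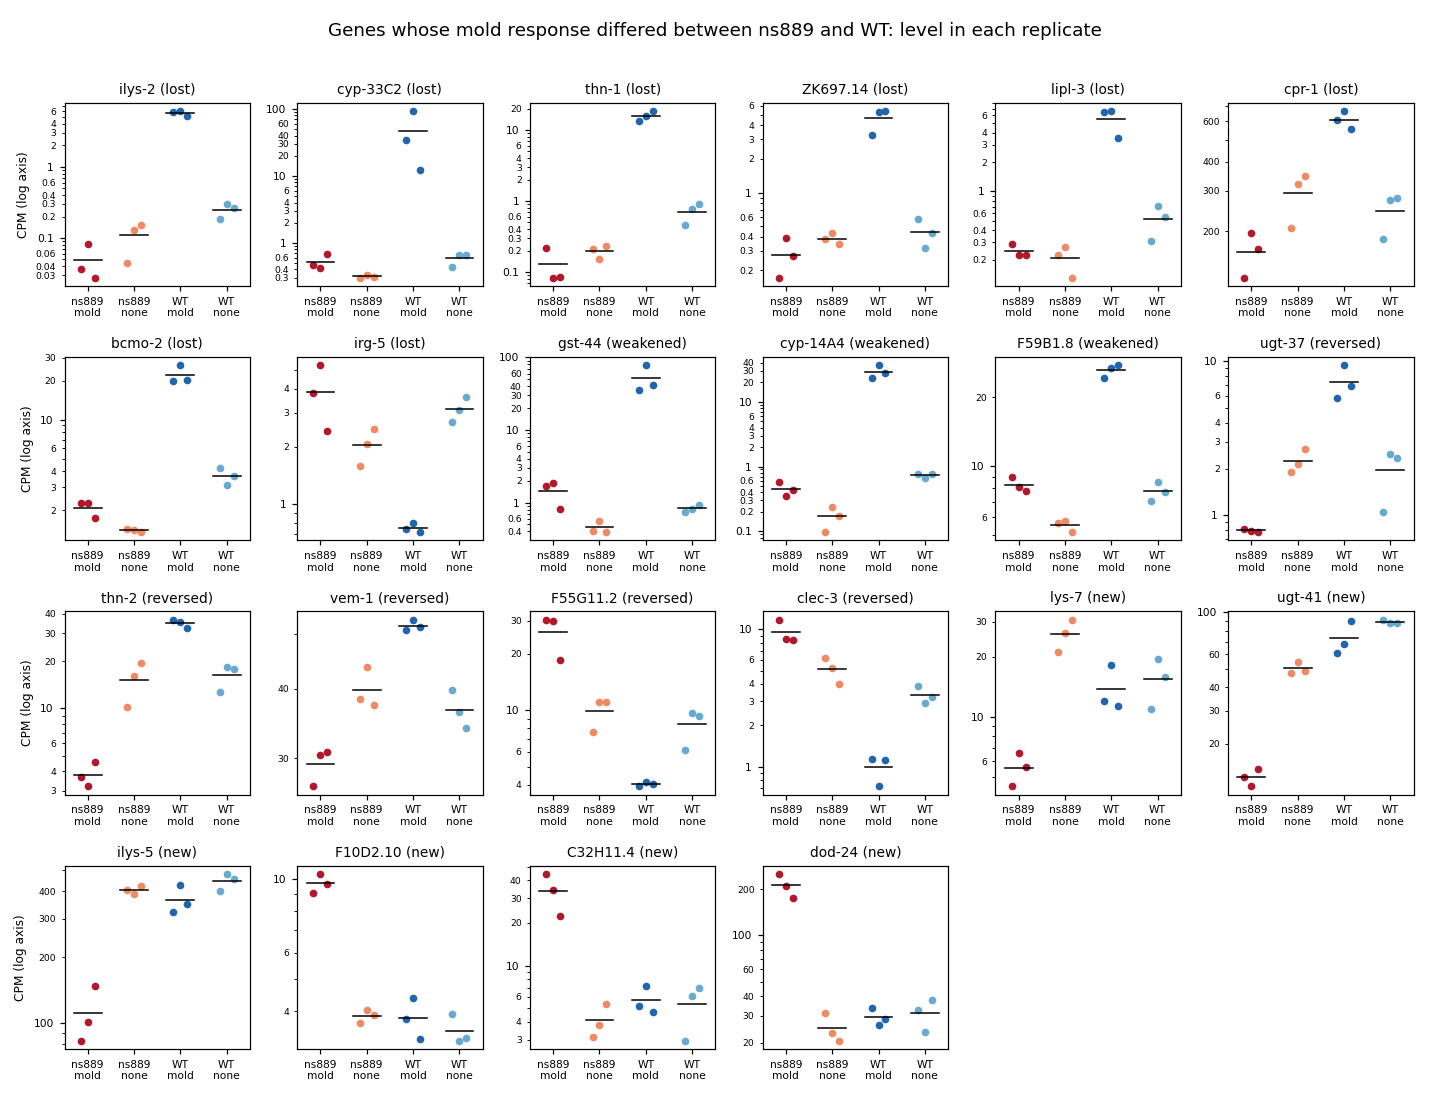
CPM on a log axis in each replicate of ns889 with mold, ns889 without mold, WT with mold and WT without mold, 1 panel per gene, with group means as lines. In ilys-2, thn-1 and cyp-14A4 only the WT replicates with mold stand high, and in dod-24 only the ns889 replicates with mold do.

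Lysozymes gave 3 of the 22 genes, of 13 tested (23.1%, against 0.0942% of all tested genes called below 0). All 3 were again below 0, with a median log2 interaction of -0.12 over the list. The invertebrate-type lysozyme gene ilys-2 (WBGene00016669, IV:2467681-2468810) had 0.0364, 0.0831 and 0.0279 CPM in ns889 with mold and 0.0444, 0.131 and 0.151 CPM in ns889 without mold, or 16 and 33 counts over the 3 replicates of each group. In WT it had 5.82, 6.04 and 5.12 CPM with mold and 0.186, 0.295 and 0.267 CPM without mold. Its level in ns889 was therefore near the floor in either condition, and it rose 22.8-fold in WT. The log2 interaction was -5.62 ± 0.59 (adjusted p = 0.002), and it rests on ns889 groups near the floor.

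The other 2 lysozymes fell in ns889 and did not pass in WT. The invertebrate-type gene ilys-5 (X:6533493-6536840, WBGene00017691) had 83.2, 102 and 148 CPM in ns889 with mold and 404, 389 and 420 CPM in ns889 without mold, against 321, 425 and 350 CPM in WT with mold and 400, 478 and 454 CPM in WT without mold. Its log2 response was -1.87 ± 0.18 in ns889 and -0.28 ± 0.17 in WT, an interaction of -1.58 ± 0.24 (adjusted p = 0.0238). The protist-type gene lys-7 (V:3481421-3482600, WBGene00003096), which is needed for resistance to several pathogens, had 4.50, 6.61 and 5.64 CPM in ns889 with mold and 21.2, 26.3 and 30.7 CPM in ns889 without mold. In WT it had 12, 18.1 and 11.4 CPM with mold and 11.01, 19.4 and 15.9 CPM without mold, so the WT groups overlapped. The interaction of lys-7 was -2.07 ± 0.34 (adjusted p = 0.0372).

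Both calls were near the threshold. That of ilys-5 was lost in 9 of 12 single removals, the exceptions being ns889 with mold replicates 1 and 3 and WT with mold replicate 1 (adjusted p 0.00254 to 0.105), and that of lys-7 in 8 of 12, the exceptions being WT with mold replicates 1 and 3 and WT without mold replicates 1 and 2 (0.026 to 0.141), so that the list held 1 to 3 calls over the 12. The ilys-5 call was also lost without both outlying WT libraries, with no filter and with the filter of 5 CPM. The lys-7 call was also lost in limma-voom and with the filter of 5 CPM. The relatives lys-1 and lys-2 rose in both genotypes. The lys-2 response was 2.43 log2 in ns889 and 2.11 in WT, with an interaction of 0.31 (adjusted p = 0.88).

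Thaumatin-like genes, whose plant relatives include antifungal proteins, gave the next pair, and these lie side by side on chromosome IV. Of the 5 genes on this list 2 were tested, and both were called below 0 (100%, against 0.0942% of all tested genes). That share rests on 1 pair of neighbours and does not describe the family. The gene thn-1 (IV:12380104-12380857, WBGene00009213) had 0.218, 0.0831 and 0.0835 CPM in ns889 with mold and 0.213, 0.151 and 0.231 CPM in ns889 without mold, while WT had 13.5, 15.6 and 18.5 CPM with mold and 0.464, 0.769 and 0.893 CPM without mold. It rose 22.5-fold in WT, the response in ns889 was -0.62 ± 0.40 log2 (95% interval -1.50 to 0.25), and the interaction was -5.11 ± 0.50 (adjusted p = 0.00167). Without mold its log2 difference for ns889 against WT was -1.82 ± 0.34.

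The neighbour thn-2 (IV:12383170-12384019, WBGene00009215) moved in opposite directions. It had 3.65, 3.20 and 4.55 CPM in ns889 with mold and 10.2, 16.01 and 19.4 CPM in ns889 without mold, against 36.6, 35.6 and 32.4 CPM in WT with mold and 12.8, 18.2 and 17.8 CPM in WT without mold. The unexposed groups overlapped, and with mold ns889 stood below them and WT above. It fell 4-fold in ns889 and rose 2.14-fold in WT, an interaction of -3.10 ± 0.31 (adjusted p = 0.00167).

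Of the 6 genes with interactions above 0, 5 were in immune lists. Of these 5, 3 are in a list built around dod-24 with earlier results of these data known. The immune lists also held the 3 lysozyme and 2 thaumatin-like genes called below 0. The share of all tested genes in these lists was not counted, so these counts are not a result about immune genes as a group. Among the 5 is dod-24, a CUB-like domain gene downstream of the FOXO factor DAF-16. It lies at IV:12940106-12941405 (WBGene00007875). It had 251, 209 and 175 CPM in ns889 with mold, against 31.4, 23.2 and 20.6 CPM in ns889 without mold, 33.5, 26.2 and 28.4 CPM in WT with mold and 32.7, 23.4 and 37.7 CPM in WT without mold. Every ns889 replicate with mold stood above all 9 others, which overlapped. It rose 8.45-fold in ns889, the WT response was -0.09 ± 0.19 log2 (95% interval -0.51 to 0.33), and the interaction was 3.17 ± 0.28 (adjusted p = 0.0012).

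Its neighbours within 48 kb gave 2 more of the 6. C32H11.4 (IV:12921264-12923288, WBGene00007867) had 44.3, 34.1 and 22.4 CPM in ns889 with mold and 3.14, 3.83 and 5.32 CPM in ns889 without mold, against 5.22, 7.19 and 4.67 CPM in WT with mold and 2.95, 6.11 and 6.89 CPM in WT without mold. As for dod-24, only ns889 with mold stood apart, and the interaction was 2.94 ± 0.47 (adjusted p = 0.033). F55G11.2 (IV:12967448-12969289, WBGene00010123) had 30.3, 29.8 and 18.6 CPM in ns889 with mold and 7.64, 11.1 and 11.1 CPM in ns889 without mold, while WT had 3.93, 4.15 and 4.04 CPM with mold and 6.13, 9.70 and 9.35 CPM without mold. It rose 2.63-fold in ns889 and fell 2.08-fold in WT, an interaction of 2.45 ± 0.32 (adjusted p = 0.00566). The call of C32H11.4 was lost in 9 of 12 single removals, the exceptions being ns889 with mold replicate 3, ns889 without mold replicate 3 and WT without mold replicate 1 (adjusted p 0.00544 to 0.141), and those of dod-24 and F55G11.2 in none of the 12.

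The stretch that these 3 called genes bound holds 11 tested genes, and all 11, the 3 included, had log2 interactions above 0, as did 44.9% of all tested genes. Since called genes above 0 set its ends, this is a description. In the other stretches named below, 0 of 2 (thn-1 and thn-2) and 4 of 6 (ugt-37 to ugt-41) tested genes had values above 0. Over a wider list of 22 tested genes with names of this stretch, other K08D8 genes and further dod genes, 3 passed above 0 and 0 below, with a median log2 interaction of 0.60. The 3 are the called genes of the stretch (13.6% of the list, against 0.0353% of all tested genes above 0). The list was built around dod-24 with earlier results of these data known, so it repeats these genes and is also a description. In the single responses 12 of the 22 rose and 0 fell in ns889, against 4 that rose and 1 that fell in WT. F55G11.8 was among those that rose in both, by 2.34 log2 in ns889 and 1.70 in WT, with an interaction of 0.65 (adjusted p = 0.87). The count above 0 was 2 to 4 when single replicates were left out, 5 without both outlying WT libraries and 7 in DESeq2. The tests of neighbouring genes are not independent where the genes share a region.

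The C-type lectin gene clec-3 (II:3017482-3019907, WBGene00016577) and the infection response gene irg-5 (V:13737007-13738474, WBGene00009429) fell with mold in WT and had higher levels with mold in ns889. clec-3 had 11.7, 8.55 and 8.43 CPM in ns889 with mold and 6.20, 5.19 and 3.97 CPM in ns889 without mold, against 1.14, 0.719 and 1.11 CPM in WT with mold and 3.89, 2.89 and 3.21 CPM in WT without mold. It rose 1.87-fold in ns889 (adjusted p = 0.0455) and fell 3.37-fold in WT, and the interaction was 2.65 ± 0.32 (adjusted p = 0.00365). irg-5 had 3.82, 5.30 and 2.41 CPM in ns889 with mold and 1.58, 2.07 and 2.49 CPM in ns889 without mold, while WT had 0.744, 0.801 and 0.719 CPM with mold and 2.68, 3.11 and 3.61 CPM without mold.

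It fell 4.14-fold in WT, and the ns889 response was 0.91 ± 0.26 log2 (95% interval 0.35 to 1.48, adjusted p = 0.0942). The groups of ns889 overlapped and those of WT did not, and the interaction of irg-5 was 2.96 ± 0.38 (adjusted p = 0.00566). In their families clec-3 was 1 of 133 tested C-type lectin genes past the threshold (0.752%, median log2 interaction 0.06). irg-5 was 1 of 8 tested infection response genes (12.5%, median 1.15). Over all tested genes 0.0353% passed above 0. The lectin count was 5 above 0 in DESeq2 and 10 with replicates 2 and 3 alone.

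**Figure D3:**
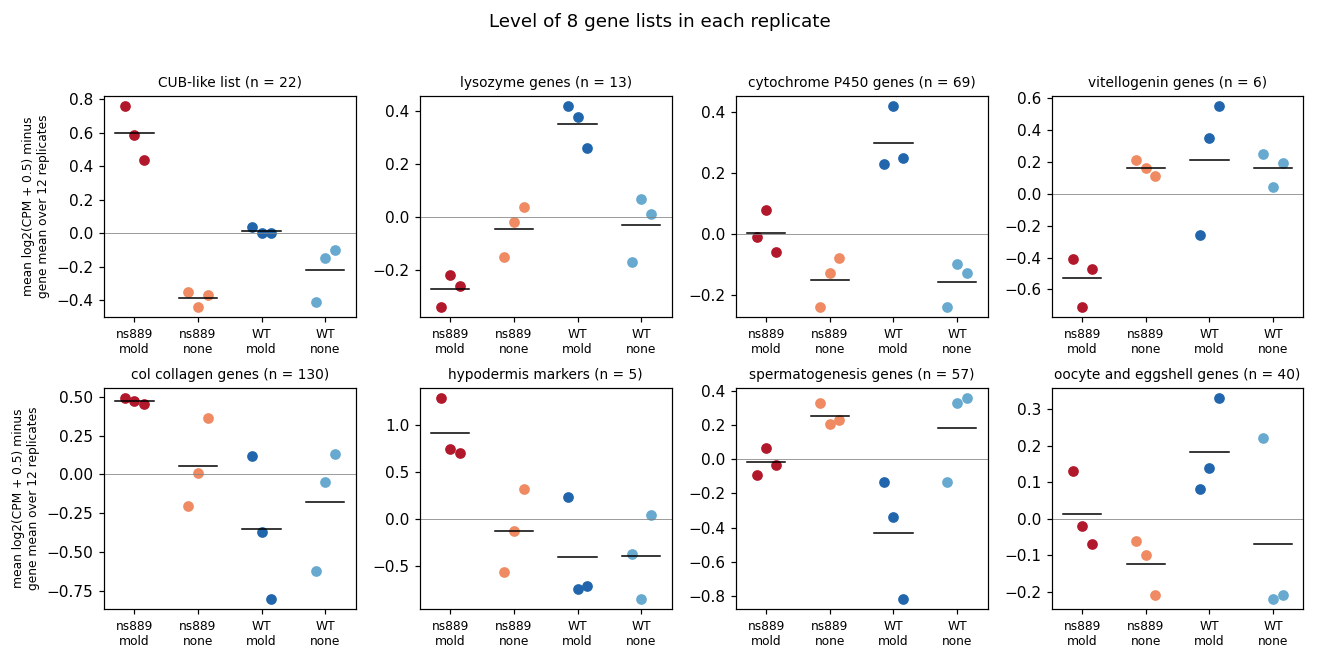
Mean over list members of log2(CPM + 0.5) minus each gene's mean over the 12 replicates, for each replicate of ns889 with mold, ns889 without mold, WT with mold and WT without mold, with group means as lines, in 8 gene lists. The CUB-like list (3 called members) stands high and the lysozyme list (3 called members) low in ns889 with mold, and the WT points of the col, hypodermis and spermatogenesis lists spread widely within a group.

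Genes of digestion and lipid use gave the next group. The intestinal cathepsin B-like protease gene cpr-1 (V:11975515-11976756, WBGene00000781) had 126, 197 and 167 CPM in ns889 with mold and 207, 322 and 347 CPM in ns889 without mold, against 608, 665 and 558 CPM in WT with mold and 186, 272 and 278 CPM in WT without mold. It rose 2.49-fold in WT, the ns889 response was -0.84 ± 0.21 log2 (adjusted p = 0.0515), and the interaction was -2.15 ± 0.30 (adjusted p = 0.00922). Its class is set by an ns889 value just short of the threshold. The call of the interaction was lost without both outlying WT libraries and with no filter on low counts (highest adjusted p 0.0815). Its relative cpr-3 rose alike in both genotypes, by 1.66 log2 in ns889 and 1.66 in WT, with an interaction of 0.00.

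The lysosomal lipase gene lipl-3 (V:521702-524218, WBGene00020016), which rises when worms fast, had 0.291, 0.222 and 0.223 CPM in ns889 with mold and 0.222, 0.271 and 0.131 CPM in ns889 without mold. In WT it had 6.47, 6.67 and 3.501 CPM with mold and 0.312, 0.717 and 0.544 CPM without mold. It rose 10.6-fold in WT, the ns889 response was 0.23 ± 0.40 log2, and the interaction was -3.18 ± 0.52 (adjusted p = 0.0372). The call was lost in 8 of 12 single removals, the exceptions being ns889 without mold replicate 3, WT with mold replicate 3 and WT without mold replicates 1 and 2, and also in limma-voom and with the first run only (highest adjusted p 0.326). The lipase genes lipl-4 and lipl-5 rose in both genotypes, with lipl-4 at 2.06 log2 in ns889 and 1.88 in WT.

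The gene bcmo-2 (II:3908491-3910837, WBGene00018755), a homolog of carotenoid-cleaving oxygenases, had 2.26, 2.28 and 1.74 CPM in ns889 with mold and 1.44, 1.42 and 1.36 CPM in ns889 without mold, against 20.0, 26.2 and 20.3 CPM in WT with mold and 4.20, 3.12 and 3.67 CPM in WT without mold. All ns889 replicates lay below all WT replicates, with a log2 difference of -1.38 ± 0.17 for ns889 against WT without mold. It rose 6.04-fold in WT, the ns889 response was 0.58 ± 0.17 log2 (95% interval 0.22 to 0.93), and the interaction was -2.02 ± 0.23 (adjusted p = 0.00281).

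F59B1.8 (V:3641858-3644243, WBGene00019100), which encodes a protein with a CHK kinase-like domain, had 8.95, 8.08 and 7.80 CPM in ns889 with mold and 5.65, 5.78 and 5.17 CPM in ns889 without mold, against 24.3, 26.7 and 27.5 CPM in WT with mold and 7.02, 8.56 and 7.72 CPM in WT without mold. It rose 1.5-fold in ns889 and 3.37-fold in WT, an interaction of -1.17 ± 0.16 (adjusted p = 0.00793). The related gene T16G1.6 lay just outside the threshold, at -2.51 ± 0.43 (adjusted p = 0.0568). It had a mean of 4.63 CPM in ns889 with mold, 15.95 in ns889 without mold, 41.8 in WT with mold and 25.3 in WT without mold. Just inside it, 5 genes had an adjusted p of 0.033 to 0.0372 (C32H11.4, F10D2.10, lys-7, lipl-3 and cyp-33C2).

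The gene vem-1, which encodes a membrane protein of a steroid-binding family with a role in axon guidance, changed little in size and in opposite directions. It lies at X:8087554-8089427 (WBGene00006890) and had 26.7, 30.5 and 30.8 CPM in ns889 with mold and 38.3, 43.7 and 37.4 CPM in ns889 without mold, against 50.9, 53.1 and 51.6 CPM in WT with mold and 39.8, 36.3 and 33.97 CPM in WT without mold. It fell 1.36-fold in ns889 and rose 1.41-fold in WT, and the interaction was -0.94 ± 0.12 (adjusted p = 0.00727). Without ns889 with mold replicate 2 its adjusted p was 0.0592.

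F10D2.10 (V:7154503-7156224, WBGene00017335) had 9.07, 10.3 and 9.67 CPM in ns889 with mold, against 3.69, 4.03 and 3.90 CPM in ns889 without mold, 3.78, 4.37 and 3.31 CPM in WT with mold and 3.91, 3.26 and 3.31 CPM in WT without mold. It lies between ugt-37 and ugt-41 and went the other way from both, with a 2.5-fold rise in ns889 and an interaction of 1.2 ± 0.2 (adjusted p = 0.0372). Its call was lost in 10 of 12 single removals, the exceptions being WT with mold replicate 2 and WT without mold replicate 1 (adjusted p 0.0343 to 0.142). ZK697.14 (V:1754238-1755689, WBGene00022809), named here after its values were seen, had 0.173, 0.388 and 0.269 CPM in ns889 with mold and 0.382, 0.432 and 0.342 CPM in ns889 without mold, against 3.29, 5.27 and 5.39 CPM in WT with mold and 0.574, 0.316 and 0.431 CPM in WT without mold. It rose 10.5-fold in WT, and its interaction was -3.86 ± 0.45 (adjusted p = 0.00281).

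Where the genotypes differed was mostly on the mold plates. Of the 22 genes, 17 passed for ns889 against WT with mold and not without it, and 5 passed in both conditions (thn-1, bcmo-2, cyp-14A4, F59B1.8 and ugt-41). Over all tested genes 6.73% passed with mold and 2.87% without mold. These comparisons use the same samples as the interaction and were not a separate test of it. By position, 8 of the 22 genes fell in 3 stretches with gaps of at most 50 kb: thn-1 and thn-2, the dod-24 stretch on chromosome IV, and ugt-37, F10D2.10 and ugt-41 within 21.7 kb of chromosome V. All 22 are annotated as protein coding, and they lie on chromosome V (11 of 3514 tested genes, 0.313%), IV (6 of 2892, 0.207%), X (3 of 2416, 0.124%) and II (2 of 2957, 0.0676%), against 0.13% of all tested genes. Several belong to families with close copies, and reads shared between copies were not examined.

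Most of what mold changed did not pass the interaction test. Of the 234 genes past the threshold in both single responses, 226 had no interaction call, and 124 of these rose and 102 fell in both genotypes, with 0 in opposite directions. For 125 of the 226 the 95% interval of the interaction lay within -1 to 1, so a difference of over 2-fold lay outside it. For the remainder the interval reached beyond -1 or 1. The median response size of the 226 was 1.28 log2 in ns889 and 1.16 in WT, and 76 of the 226 had the larger response in WT. Of 300 genes past the threshold in ns889 and not in WT, 6 (2%) had an interaction call, and of 830 genes past it in WT and not in ns889, 8 (0.964%) had one. The remaining 822 of those 830 were not shown to differ between the genotypes.

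**Figure D4:**
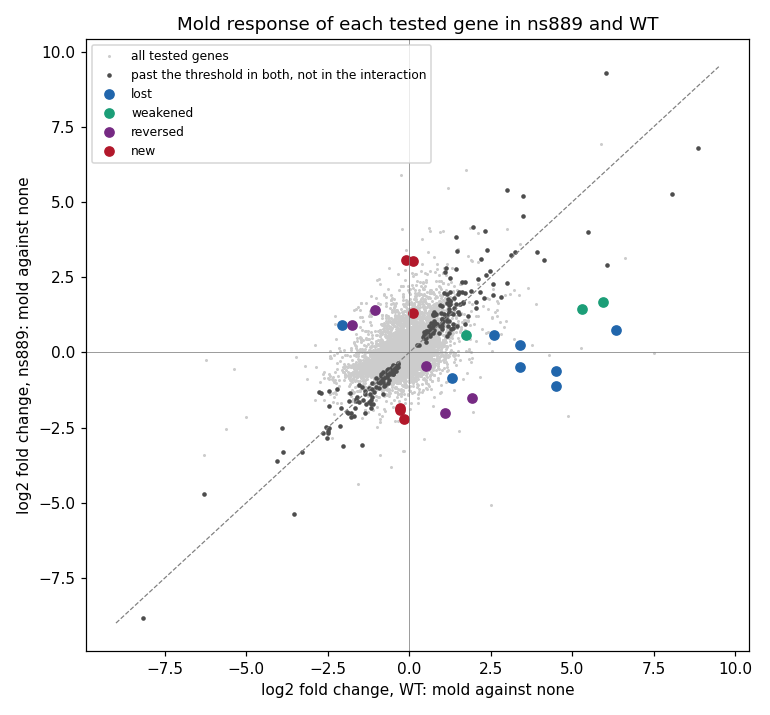
Log2 fold change with mold in ns889 (vertical) against WT (horizontal) for the 16980 tested genes, with the line of equal response dashed. The 226 genes past the threshold in both responses without an interaction call (dark points) have the same sign in both, some of them several fold off the line, as cyp-13A12 is with an interaction of 3.23, and the 22 called genes are coloured by class.

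Examples of shared responses came from several groups. The hormone receptor gene nhr-114, known for its part in the response to tryptophan and vitamin B12 status, had 60.9, 57.8 and 88.7 CPM in ns889 with mold and 155.9, 177 and 145 CPM in ns889 without mold, against 54.6, 88.9 and 68.9 CPM in WT with mold and 134, 170 and 166 CPM in WT without mold. It fell in both genotypes, with an interaction of -0.06 ± 0.26 (95% interval -0.63 to 0.51). The beta-lactamase domain gene lact-2 had 38.02, 39.7 and 38.7 CPM in ns889 with mold and 16.1, 16.5 and 21.97 CPM in ns889 without mold, against 44.6, 33.3 and 36.7 CPM in WT with mold and 14.6, 22.1 and 19.9 CPM in WT without mold, and its interaction was 0.08 ± 0.23. Its relative lact-6 had 9 counts over the 3 ns889 replicates with mold and 14 over those of WT with mold, against 4112 in ns889 without mold, and its interaction of -0.64 ± 0.85 was not resolved.

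Stress and regulatory lists held few interaction calls, as did the tested genes as a whole (0.13%). Of 204 tested nuclear hormone receptor genes none passed, with a median log2 interaction of 0.03, and nhr-45 had 35.8, 35.4 and 31.7 CPM in ns889 with mold and 25.5, 25.0 and 26.1 CPM in ns889 without mold, against 15.5, 16.7 and 14.9 CPM in WT with mold and 13.2, 15.2 and 17.4 CPM in WT without mold. It was higher in every ns889 replicate than in every WT replicate, and its interaction was 0.38 ± 0.15 (adjusted p = 0.87). The mitochondrial chaperone gene hsp-6 had an interaction of -0.07 ± 0.10. Of the 16 genes of the mitochondrial unfolded protein response list cyp-14A4 was the 1 that passed (6.25%, against 0.13% of all tested genes). None of the tested members of the endoplasmic reticulum unfolded protein response (20 genes), cytosolic heat shock (18), ribosomal protein (81), proteasome (33) and F-box (180) lists passed. With 0.13% of all tested genes called, lists of these sizes without a call are near that share. The absence of calls is therefore not a result about these lists or the hormone receptors.

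The 6 vitellogenin genes, which encode yolk proteins, had a median log2 interaction of -0.83, and none passed. vit-2 had 14520, 13250 and 15490 CPM in ns889 with mold and 19400, 20240 and 19790 CPM in ns889 without mold, against 20290, 24220 and 26550 CPM in WT with mold and 21220, 20720 and 21790 CPM in WT without mold. Every ns889 replicate with mold lay below all others, and the interaction was -0.62 ± 0.13 (adjusted p = 0.198). vit-2, vit-5 and vit-6 fell in ns889, and none of the 6 passed in WT. Without WT with mold replicate 1, the yolk genes past the interaction threshold numbered 5, and with replicates 2 and 3 alone 6.

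Some lists of structural and germline genes gave no calls and had medians away from that of all genes. The 130 tested col cuticle collagen genes had a median log2 interaction of 0.51, the 68 other cuticle genes 0.48 and the 57 spermatogenesis genes 0.36, against -0.03 for all tested genes. The mean level of the col list, as log2(CPM + 0.5) relative to each gene's mean, was 0.45 to 0.49 in ns889 with mold and -0.20 to 0.36 in ns889 without mold, against -0.80 to 0.12 in WT with mold and -0.62 to 0.13 in WT without mold. The 5 hypodermis markers dpy-7, rol-6, elt-3, bli-1 and dpy-13 had a level of 0.71 to 1.29 in ns889 with mold and -0.56 to 0.32 in ns889 without mold, against -0.74 to 0.24 in WT with mold and -0.85 to 0.05 in WT without mold. The 5 did not move alike. The log2 interaction was 1.74 for dpy-7, 1.03 for rol-6, 1.58 for bli-1 and 1.33 for dpy-13, but 0.17 for elt-3. The elt-3 mean was 36.4 CPM in ns889 with mold and 39.3 in ns889 without mold, so the level is not one of all hypodermis markers. None of the 5 passed, and in WT the replicates of a group spread as far as the groups did.

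The spermatogenesis list had a level of -0.09 to 0.07 in ns889 with mold and 0.21 to 0.33 in ns889 without mold, against -0.82 to -0.13 in WT with mold and -0.13 to 0.36 in WT without mold. With replicates 2 and 3 alone 14 of its genes passed above 0, against 0 with all replicates. The part of these shifts in cuticle, sperm and yolk genes in the 22 calls was not tested.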

How the data were processed

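Whole-animal poly(A) RNA was sequenced with a stranded mRNA kit, per the labels' protocols. The authors deposited counts per gene, without normalization. FastQC 0.11.12, STAR 2.4a, featureCounts and the WBcel235 genome are named, besides edgeR 3.28.1 and limma 3.42.2, per the submitters' processing notes. Neither source states the strand setting or the annotation release. Of 46904 gene IDs in the table, 46817 are in annotation release 115, and coordinates are the table's.

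Runs of a replicate (1 for replicate 1, 2 for replicates 2 and 3) were summed. Chi-square per degree of freedom was 1.08 to 1.12 between runs of a replicate and 12.1 to 193 between replicates. After filterByExpr and TMM scaling, genes were fitted as 4 group means with edgeR's robust quasi-likelihood test (R 4.3.3, edgeR 4.0.16), with Benjamini-Hochberg adjusted p-values over 16980 genes (threshold 0.05). Errors beside log2 values are standard errors, and 95% intervals use the fit's degrees of freedom. No covariate was used. Same-numbered replicates of different groups had deviations correlated at -0.323 to 0.297, so the numbers were not taken as pairs.

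The members, the 46 gene lists, the tests and the rule for named genes were chosen with earlier results of these data known. Named genes were the 12 highest and 12 lowest called interactions with a mean of at least 5 CPM in some group, up to 5 per class, up to 3 called genes or the 2 most abundant per list, and 11 genes always included; not all of them are printed. Alternatives were DESeq2 1.42.0, limma-voom (limma 3.58.1), RLE scaling, a 5 CPM filter or none, a single run per replicate, a replicate block, removal of replicates and a minimum size of 1 (log2). The fit was tested on simulated data with 50 changed genes at each fold. It found 14% at 1.5-fold, 36% at 2-fold, 84% at 4-fold and 94% at 8-fold, with 6 false among 120 calls. Most interactions of 2-fold or less were thus missed there. The simulated counts used 1 mean per gene over all groups and the trend of dispersion with level, not each gene's own dispersion. Genes were changed in ns889 with mold only, and no library was made to stand apart. The shares found and the false calls may therefore differ in the real data. Promoter sequences were not analysed here. Figures were drawn with matplotlib 3.10.9.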

Additional observations from a re-analysis of the deposited data

Results flagged for a closer look

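All 22 genes past the interaction threshold are listed here because the mold response of ns889 differed from that of WT in a direct test of the difference (edgeR's quasi-likelihood test). The log2 interactions above 0 were 3.17 for dod-24, 2.96 for irg-5, 2.94 for C32H11.4, 2.65 for clec-3, 2.45 for F55G11.2 and 1.2 for F10D2.10. Those below 0 were -0.942 for vem-1, -1.17 for F59B1.8, -1.58 for ilys-5, -1.63 for ugt-41, -2.02 for bcmo-2, -2.07 for lys-7, -2.15 for cpr-1 and -3.1 for thn-2. The lower values were -3.18 for lipl-3, -3.41 for ugt-37, -3.86 for ZK697.14, -3.88 for cyp-14A4, -4.27 for gst-44, -5.11 for thn-1, -5.6 for cyp-33C2 and -5.62 for ilys-2.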

How the results depend on the processing

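Of the 22 genes, 12 passed under every one of 22 alternatives that tested them (F55G11.2, F59B1.8, ZK697.14, bcmo-2, clec-3, dod-24, ilys-2, irg-5, thn-1, thn-2, ugt-37 and ugt-41), 4 lost the call under 1 or 2 (cpr-1, cyp-14A4, gst-44 and vem-1) and 6 under at least 10 (C32H11.4, F10D2.10, cyp-33C2, ilys-5, lipl-3 and lys-7). No named gene changed the sign of a called interaction under any of them. The cause of the changes below was not tested.

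The main counts were 6 above 0, 16 below 0, 8 lost, 3 weakened, 5 reversed, 6 new, 0 stronger in ns889 and 0 with an interaction alone. With DESeq2 they were 46, 32, 15, 6, 13, 35, 8 and 1. With replicates 2 and 3 only they were 587, 116, 571, 11, 16, 71, 12 and 22. Without the pair of outlying WT libraries (replicate 1 without mold, replicate 3 with mold) they were 85, 29, 37, 35, 14, 21, 7 and 0. The filter of 5 CPM gave 10 below 0, 4 lost and 3 new, the first run alone 5 lost, limma-voom 1 weakened, and a minimum log2 fold change of 1 gave 3 reversed. When single replicates were left out, the counts ran from 4 to 24 above 0, 11 to 21 below 0, 7 to 12 lost, 0 to 3 weakened, 1 to 10 reversed, 2 to 14 new and 0 to 3 stronger in ns889.

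With the replicate block, the fit also called 22 genes, 6 above 0 and 16 below 0, of which 18 were shared (C32H11.4, F10D2.10, cyp-33C2 and lipl-3 were not). With 3 replicates a group, the median standard error of a log2 interaction was 0.25, and 0.162 at 5 CPM or more.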
